A study of Mus musculus with 24 samples.

Results

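Gene expression of mouse pancreatic stellate cells (PSC) was compared between inverse and standard co-culture with KPC cancer cells at 24 h. Members of the comparison were chosen by their labels alone: the 3 libraries of PSC from inverse co-culture and the 3 of PSC from standard co-culture at 24 h, 6 of the 24 libraries sequenced. All PSC came from wild-type C57BL/6J mice of 7 to 10 weeks, with 4 to 10 pancreata pooled for an isolation. KPC cells are a mouse pancreatic cancer cell line. In standard co-culture, KPC cells grew on the floor of the well and PSC on the membrane of an insert hung above them. In inverse co-culture, KPC cells grew on the underside of the same membrane that carried PSC on its upper side, so that only the membrane, with pores of 1 µm, lay between them. Control PSC of each model were grown without KPC cells, with 3 libraries per model at 24 h, and were sampled alongside.

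The comparison asks whether the distance to the cancer cells is visible in PSC when the models are set side by side, instead of each against its own control. Several factors differed with the model besides distance. PSC and KPC cells had been together for 48 h in inverse co-culture and for 24 h in standard co-culture when RNA was taken, and libraries were made from 120 ng of RNA in the inverse and 450 ng in the standard model. By the study's methods, PSC of the standard model were also seeded in a serum-richer low glucose medium and moved to Advanced DMEM/F-12 at the start of co-culture, whereas PSC of the inverse model were in Advanced DMEM/F-12 from seeding. Distance, time together, RNA input and medium therefore cannot be told apart in this comparison. The study's methods call the replicates of a group biological, but neither they nor the labels say that these came from separate isolations. The spread between them may therefore be partly technical.

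PSC store retinoids in the healthy pancreas and, once activated, make the collagen-rich matrix of pancreatic cancer. Some cancer-associated fibroblasts (CAF) derive from activated PSC. They are grouped into myofibroblastic CAF with contractile genes and inflammatory CAF with cytokines such as IL6. Cancer cells act on them through soluble factors and can also alter the shared medium, for example its oxygen and lactate. Interferon response genes and hypoxia genes are known to respond to such factors in fibroblasts and are followed here as gene groups. Whether KPC cells set their levels in these cultures was not tested.

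Expression was given as FPKM, the fragments of a gene scaled to its length and to the depth of the library, so levels of different genes are per length. The 6 libraries rested on 16110302 to 23366881 counted fragments, and the 12 libraries of 24 h on 15932737 to 24798761. Labels fitted markers shared by stellate cells and fibroblasts: VIM, an intermediate filament, was at 1161, 1109 and 1186 FPKM in the inverse libraries (replicates 1, 2 and 3) and at 1762, 746 and 1074 FPKM in the standard libraries. COL1A1, the main chain of collagen I, lay between 6611 and 10708 FPKM in all 6, and PDGFRB between 131 and 170 FPKM. GFAP, a marker of quiescent PSC, was at or below 0.164 FPKM in all 6 libraries. The paper, by contrast, reported its isolated PSC positive for GFAP by immunostaining, a measure of protein. Over 11 of the 12 stellate cell and fibroblast markers that were tested, the median log2 difference between the models was -0.02, from -0.24 to 0.06 when each library was left out.

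No gene passed the test between the models. With limma, 0 of 12772 genes had an adjusted p under 0.05 (0% called), the smallest adjusted p being 0.544. At an unadjusted p under 0.05 there were 499 genes (3.91%), 253 with higher values in inverse co-culture (1.98%) and 246 with lower values (1.93%). The voom method on recovered fragments called 0 of 12097 genes as well, with 498 at an unadjusted p under 0.05. A log2 difference of 1 or more in either direction was seen for 143 genes (1.12%).

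The result does not show that the models act alike. The median standard error of a log2 difference was 0.205 and the median width of its 95% interval 0.967. For 9965 genes (78.0%) the 95% interval lay within 1 log2 unit of 0, so that a difference above 2-fold was outside the interval, whereas for the remaining genes a larger difference was inside it. With 3 libraries against 3, the smallest p an exact two-sided permutation test can give is 0.1, so such a test of a single gene cannot reach 0.05. Genes are therefore described below by their values, their 95% intervals from limma and by whether the libraries of both groups overlapped. Without overlap were 624 genes with higher values in inverse co-culture (4.89%) and 656 with lower values (5.14%), together 10.0%. Were the group labels exchangeable, the share of genes without overlap would be about the same 0.1. The number of such genes was thus no larger than random labels would give, and lack of overlap does not by itself set a gene apart. These shares are the background for the counts of members without overlap below.

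**Figure D1:**
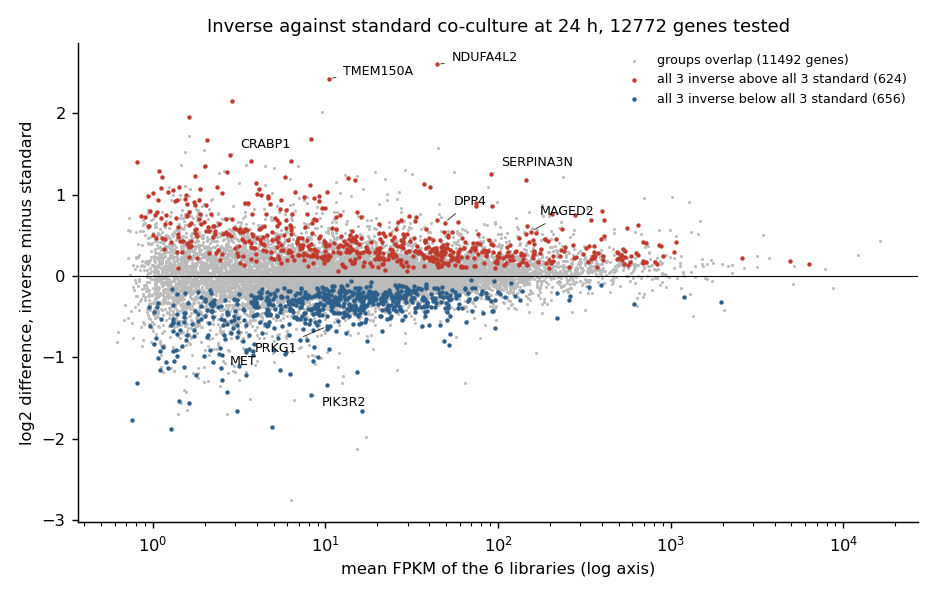
Log2 difference of inverse minus standard co-culture at 24 h (vertical axis) against the mean FPKM of the 6 libraries (log axis) for the 12772 genes tested, each point 1 gene. The 624 genes in red and 656 in blue had groups without overlap, and none of the genes shown passed an adjusted p of 0.05.

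Inverse libraries were somewhat closer to each other, and standard libraries farther from each other, than libraries of different models were. The root mean square log2 distance had a median of 0.490 between inverse libraries, 0.670 between standard libraries and 0.532 between the models. Standard libraries were spread the most: their mean squared log2 deviation from the group mean was 0.236, 0.149 and 0.0638, against 0.0838, 0.0596 and 0.102 in the inverse libraries. On the first principal component, with 48.3% of the variance, standard replicate 1 lay at 56.0 and standard replicate 2 at -36.4, while the inverse libraries lay between them at -17.9, -0.786 and 11.9. Standard replicates 1 and 2 thus stood at the opposite ends, and group medians whose sign turns without 1 library are given below with the range over omissions or that value.

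As no gene passed, the 6 protein-coding genes with the smallest p in each direction are given as values, among those with a mean of at least 5 FPKM and groups without overlap. They were led by TMEM150A, which encodes a membrane protein linked to phosphoinositide kinase at the plasma membrane. TMEM150A was at 22.3, 19.6 and 12.1 FPKM in inverse co-culture and at 3.94, 2.44 and 2.36 FPKM in standard co-culture, a log2 difference of 2.42 (95% interval 1.76 to 3.09; adjusted p = 0.544 in limma). All inverse libraries were thus well above all standard libraries. In control PSC it was the standard libraries that were high in part, with 2.27, 30.02 and 7.89 FPKM against 1.55, 2.56 and 2.09 FPKM in the inverse controls. At 72 h the order in co-culture was turned as well, with 3.86, 1.91 and 4.89 FPKM in inverse and 19.8, 12.1 and 6.35 FPKM in standard co-culture. The gene lies on chromosome 6 (GRCm38, 72355447 to 72359762, plus strand), and its end overlaps RNF181 on the other strand, whose reads cannot be told apart without strand.

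Among the other genes with the smallest p in the higher direction, differences were small and replicates close. MAGED2, a regulator of ion transport in the kidney that many cells express, was at 176, 194 and 181 FPKM in inverse and 123, 126 and 128 FPKM in standard co-culture. DPP4, a peptidase on the cell surface that also marks a class of fibroblasts, was at 58.0, 52.8 and 70.1 FPKM against 35.0, 36.8 and 41.9 FPKM. In both genes every inverse library exceeded every standard library, by a log2 difference of 0.55 (95% interval 0.30 to 0.80) for MAGED2 and of 0.66 (0.31 to 1.00) for DPP4. SELENOW, a small selenoprotein with a redox role, was at 188, 155 and 170 FPKM against 118, 124 and 116 FPKM. The scaffold protein gene SLC9A3R2 and the splicing factor gene SNRNP35 completed the 6, with log2 differences of 0.51 and 0.76.

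In the lower direction PRKG1, the cGMP-dependent kinase of smooth muscle relaxation, was at 7.76, 8.05 and 8.11 FPKM in inverse and 11.9, 11.97 and 13.7 FPKM in standard co-culture. Its inverse libraries were nearly equal and all below the standard ones, with a log2 difference of -0.62 (95% interval -0.94 to -0.29). DST, a giant linker of the cytoskeleton, was at 32.6, 44.8 and 41.9 FPKM against 54.9, 66.5 and 74.5 FPKM. SH3PXD2A, a scaffold of podosomes, the adhesion structures that break down matrix, was at 35.8, 45.2 and 43.1 FPKM against 62.8, 55.4 and 61.5 FPKM. Both lay below in every inverse library, by -0.71 and -0.54 on the log2 scale. PDPR, a subunit of pyruvate dehydrogenase phosphatase, had a log2 difference of -0.66, the zinc finger gene ZFP871 of -0.96, and ILDR2, an immunoglobulin-like receptor gene, of -0.59. Apart from TMEM150A, each of these 12 genes had an adjusted p of 0.999.

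**Figure D2:**
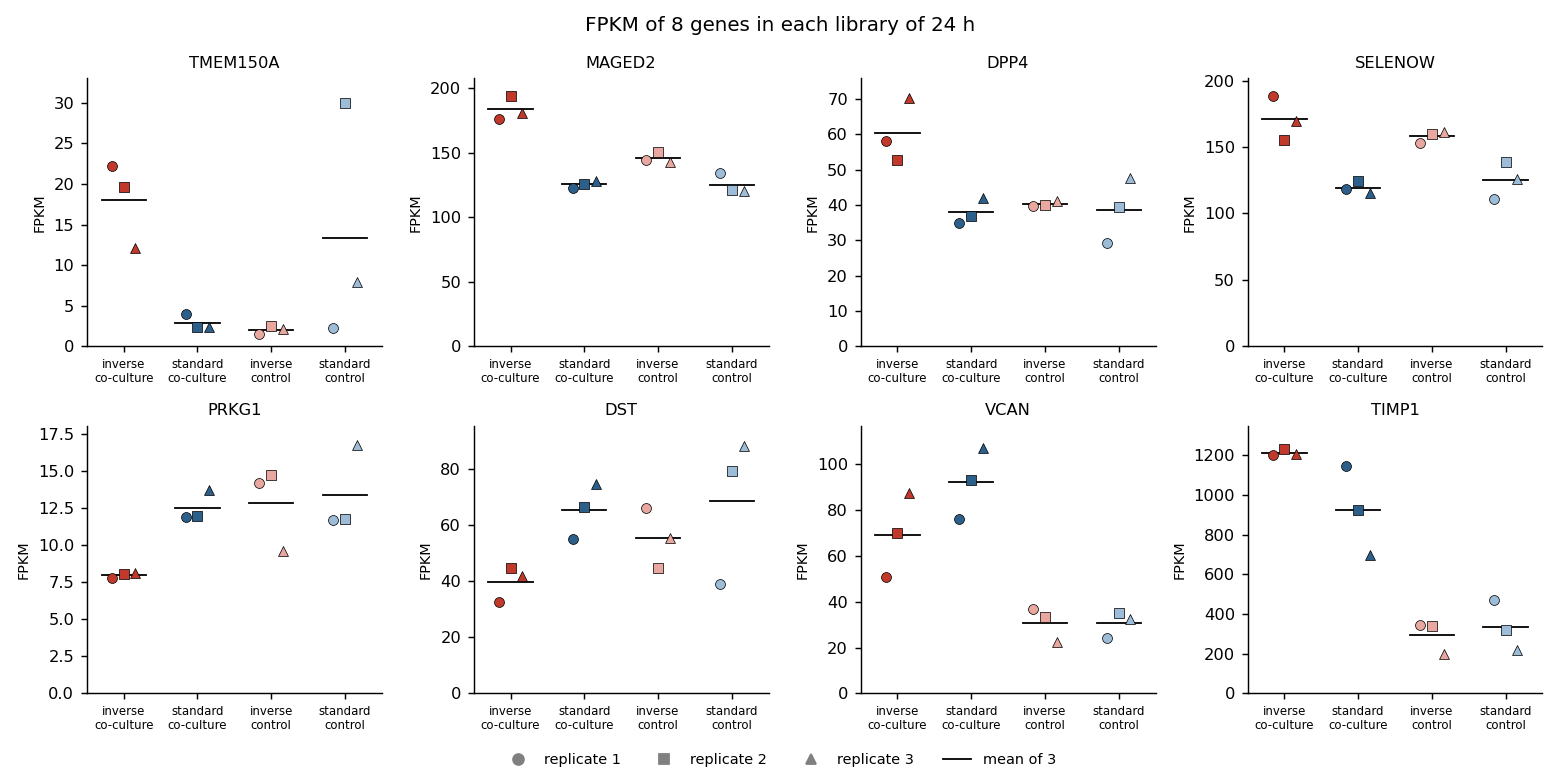
FPKM (vertical axes, from 0) of 8 genes in each library of 24 h, by group, with a symbol for each replicate and a line at the mean of 3. TMEM150A, MAGED2, DPP4 and SELENOW lie higher and PRKG1 and DST lower in all 3 inverse co-culture libraries than in the standard ones, whereas VCAN lies above the controls in both co-cultures and overlaps between them.

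Several more genes without overlap, chosen after their values were seen, had log2 differences near or above 1 in size but varied more between libraries. NDUFA4L2, a hypoxia-induced subunit-like protein of the respiratory chain, was at 20.4, 14.6 and 210 FPKM in inverse and 6.09, 11.03 and 3.44 FPKM in standard co-culture. Inverse replicate 3 was by far the highest. The difference was 2.60 log2 units (95% interval 0.33 to 4.87), and 1.41 in the lowest case when 1 library was left out. MGARP, a hypoxia-induced mitochondrial protein, was at 5.98, 10.6 and 22.8 FPKM against 4.52, 2.52 and 2.83 FPKM, again with replicate 3 the highest. FAM162A, another hypoxia-induced mitochondrial gene, was at 122, 128 and 377 FPKM against 105, 81.4 and 59.3 FPKM. SERPINA3N, a secreted protease inhibitor, was at 129, 114 and 112 FPKM against 17.2, 100 and 68.9 FPKM. Its difference of 1.26 log2 units (95% interval -0.11 to 2.63) rested in good part on standard replicate 1 and was 0.51 in the lowest case when 1 library was left out.

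On the lower side, PIK3R2, a regulatory subunit of PI3 kinase, was at 3.68, 3.53 and 3.80 FPKM in inverse and 5.30, 22.3 and 10.9 FPKM in standard co-culture. HIPK2, a kinase of the DNA damage response, was at 6.12, 9.07 and 12.3 FPKM against 13.7, 23 and 27.3 FPKM. ALCAM, a cell adhesion molecule, was at 5.36, 3.01 and 1.69 FPKM against 5.49, 8.51 and 8.72 FPKM. Inverse libraries were below all standard libraries in these 3 genes, although for ALCAM inverse replicate 1 and standard replicate 1 differed by little. NRP2, a co-receptor for VEGF and semaphorins, and ATP1B1, a sodium pump subunit, had log2 differences of -0.91 and -1.05. For ATP1B1 the control PSC differed in the same direction, by -0.88, whereas NRP2 differed by 0.02 in controls.

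Another 10 genes were followed by name because the study's text discusses them for both models, so they were not chosen without knowledge of these data. VCAN, the large chondroitin sulfate proteoglycan versican, was at 50.7, 69.9 and 87.2 FPKM in inverse co-culture, at 76.1, 93.1 and 107 FPKM in standard co-culture, and between 22.2 and 36.7 FPKM in the 6 control libraries. Both co-cultures lay above their controls, by 1.16 log2 units in the inverse and 1.58 in the standard model, and the libraries of the co-cultures overlapped. Their log2 difference was -0.43 (95% interval -0.95 to 0.10). CHST11, which sulfates chondroitin chains such as those of versican, was at 11.3, 15.9 and 16.6 FPKM against 20.8, 16.9 and 15.8 FPKM, a difference of -0.29 (-0.74 to 0.17). SDC4, a heparan sulfate proteoglycan of focal adhesions, differed by 0.23 (-0.16 to 0.62). FN1, the matrix glycoprotein fibronectin, was at 3900, 5114 and 7278 FPKM against 3854, 6188 and 4671 FPKM, which overlapped widely.

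STAC2, an adaptor protein gene, and TIMP1, an inhibitor of matrix metalloproteinases, were the 2 of these 10 genes without overlap. STAC2 was at 21.3, 22.3 and 29.5 FPKM in inverse and 17.1, 17.8 and 18.9 FPKM in standard co-culture, and the control PSC differed by the same log2 amount of 0.42. TIMP1 was at 1201, 1235 and 1208 FPKM against 1149, 924 and 700 FPKM, a log2 difference of 0.42 (-0.05 to 0.90), while its controls differed by -0.16. HGF, the ligand of the receptor MET, was at 22.4, 22.99 and 19.5 FPKM against 22.4, 31.7 and 38.1 FPKM, a difference of -0.47 (-0.95 to 0.01). MET itself, which was not among these 10, was at 1.37, 1.44 and 1.46 FPKM against 1.86, 3.85 and 4.58 FPKM. Every inverse library was lower for MET, by -0.96 log2 units (-1.72 to -0.20), at levels near the limit of 1 FPKM used for testing. CYS1, ACSL4 and EREG differed by 0.29, -0.28 and -0.12 log2 units, with intervals that included 0.

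**Figure D3:**
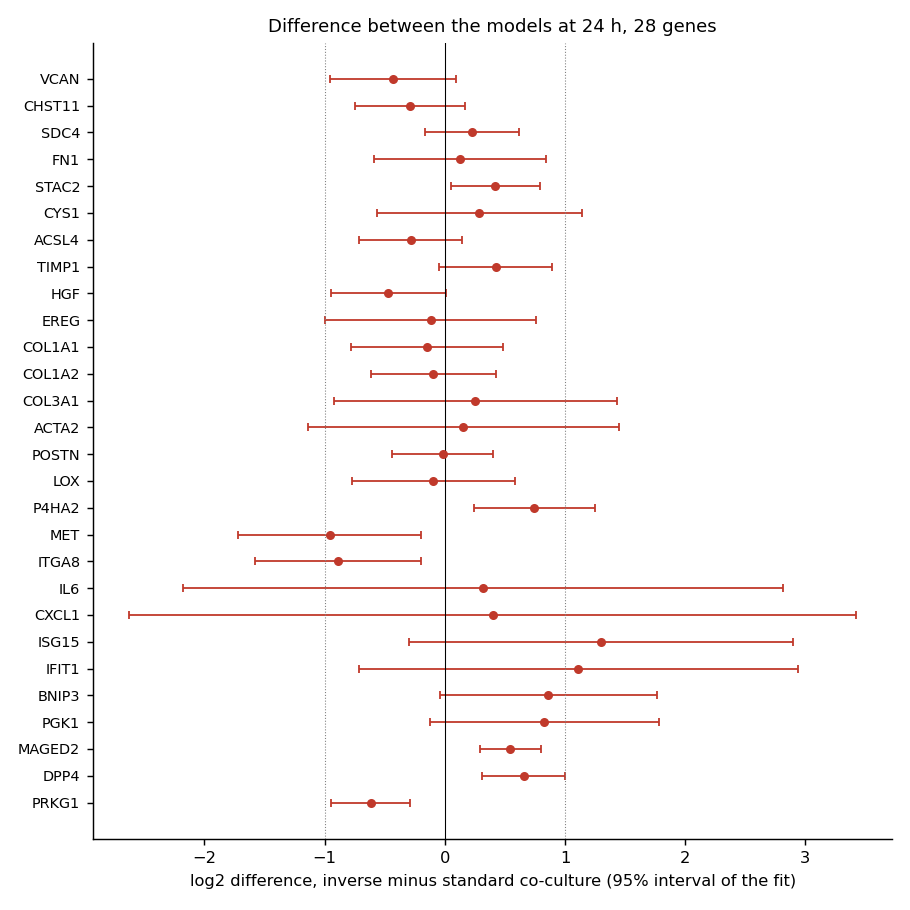
Log2 difference of inverse minus standard co-culture at 24 h for 28 genes (points) with the 95% interval of the limma fit (bars), and dotted lines at 1 log2 unit either side of 0. The interval of IL6, from -2.17 to 2.81, and that of CXCL1 are several times wider than that of MAGED2, from 0.30 to 0.80.

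Collagen genes had slightly lower values in inverse co-culture, with 6 of 22 members tested above 0 and a median log2 difference of -0.11, beside 52.0% above 0 and a median of 0.01 over all genes tested. COL1A1 was at 6611, 8048 and 10369 FPKM in inverse and 7722, 10708 and 9092 FPKM in standard co-culture. COL1A2 differed by -0.09 (95% interval -0.62 to 0.43) and COL3A1, the second fibrillar collagen of the stroma, by 0.25 (-0.93 to 1.43). Fibrillar collagens thus overlapped between the models. Only COL4A1 and COL4A2, the basement membrane collagens encoded side by side, had groups without overlap among the 22. Both were lower, beside 5.14% of all genes lower without overlap. COL4A1 was at 1490, 1872 and 1878 FPKM against 2401, 2083 and 2034 FPKM, a difference of -0.32 (-0.73 to 0.09), and COL4A2 differed by -0.26. With a correction for transcript length, described below, the median of the collagens came to 0.006 and so changed its sign.

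Of the 23 elastic fibre and basement membrane genes, 15 had lower and 8 higher values, with a median of -0.11 that was -0.05 with the length correction. HSPG2, the heparan sulfate proteoglycan perlecan, was at 121, 205 and 224 FPKM in inverse and 238, 268 and 256 FPKM in standard co-culture. The laminin chains LAMA2 and LAMC1 had log2 differences of -0.41 and -0.29, also without overlap. These 3 of 23 were the members lower without overlap, beside 5.14% of all genes and 12.7% of the longest. EFEMP2, which guides the assembly of elastic fibres, was the 1 higher, at 1067, 970 and 914 FPKM against 817, 718 and 756 FPKM. ELN, the elastin gene, was at 78.4, 68.7 and 48.5 FPKM against 23.5, 141 and 101 FPKM, with the standard libraries on both sides of the inverse ones.

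Enzymes that modify and crosslink collagen were higher in part. Of 17 tested, 13 had higher values in inverse co-culture, with a median log2 difference of 0.19, and 6 were higher without overlap (LOXL1, PLOD1, P4HA2, SERPINH1, BMP1 and PCOLCE), beside 4.89% of all genes. In control PSC 5 of the 17 were higher without overlap, beside 4.65% of all genes tested in controls. P4HA2, a subunit of the prolyl hydroxylase that stabilizes the collagen helix, was at 286, 293 and 474 FPKM against 226, 190 and 197 FPKM, a difference of 0.74 (95% interval 0.24 to 1.25). PCOLCE, which enhances the cleavage of procollagen, was at 868, 787 and 802 FPKM against 655, 567 and 628 FPKM. PLOD1, a lysyl hydroxylase, was at 123, 135 and 209 FPKM against 112, 106 and 110 FPKM. In these 3 genes inverse replicate 3 was the highest for P4HA2 and PLOD1 but not for PCOLCE. LOX, the lysyl oxidase itself, was at 377, 394 and 539 FPKM against 682, 321 and 445 FPKM and overlapped, as did LOXL2. TGM2, a transglutaminase that links matrix proteins, was lower without overlap, at 43.4, 42.6 and 48.6 FPKM against 54.4, 65.5 and 53.5 FPKM. The control PSC showed a median of 0.12 over these 17 genes.

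Integrins, the receptors by which PSC hold on to matrix, were mostly lower in inverse co-culture. Of 13 tested, 11 had lower values and the median log2 difference was -0.31, between -0.49 and -0.17 when each library was left out, while it was -0.01 in the control PSC. With the length correction it was -0.19. ITGA8, a fibronectin-binding subunit of mesenchymal cells, was at 1.87, 1.44 and 1.29 FPKM in inverse and 4.80, 2.43 and 2.86 FPKM in standard co-culture. ITGA6, a laminin-binding subunit, was at 2.62, 3.83 and 1.56 FPKM against 4.35, 3.87 and 6.87 FPKM. ITGA9 was at 35.6, 41.7 and 34.7 FPKM against 54.7, 43.2 and 41.8 FPKM. These 3 of 13 were the members without overlap, beside 5.14% of all genes lower without overlap and 12.7% of the longest. ITGA6 came within a small margin of overlap. ITGB1, the common beta chain, was at 739, 802 and 746 FPKM against 1003, 622 and 770 FPKM and showed no difference beyond the spread, with 95% limits of -0.50 and 0.42. ITGA1 and ITGA3 had differences of -0.33 and -0.09, and ITGA2, a collagen-binding subunit, was one of the 2 members with higher values, by 0.47 (-0.07 to 1.01).

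Matrix-degrading enzymes went both ways. MMP14, the membrane-bound collagenase of fibroblasts, was at 559, 597 and 468 FPKM in inverse and 676, 696 and 687 FPKM in standard co-culture, a log2 difference of -0.35 (95% interval -0.68 to -0.02). ADAMTS12, a secreted protease, was at 25.5, 30.8 and 38.2 FPKM against 52.98, 39.7 and 51.2 FPKM, a difference of -0.61 (-1.05 to -0.16). Both were lower without overlap. MMP3, a stromelysin, was at 68.6, 62.9 and 86.7 FPKM against 10.3, 66.2 and 36.4 FPKM, with standard replicate 1 far below the others. MMP2 differed by 0.08 (-0.70 to 0.86). Of the 23 metalloproteinases and inhibitors tested, 15 had lower values and the median was -0.04, from -0.27 to 0.145 when each library was left out. Enzymes of glycosaminoglycan synthesis had a median of -0.04 over 23, and 5 were lower without overlap (CHST2, CHSY1, CSGALNACT2, XYLT1 and NDST1), beside 5.14% of all genes and 12.7% of the longest, of which NDST1 had the values 18.3, 22.2 and 26.9 against 27.5, 30.3 and 28.1 FPKM.

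Interferon-stimulated genes had higher values in inverse co-culture in all 24 members tested of 30, with a median log2 difference of 0.66. ISG15, a ubiquitin-like modifier induced by interferon, was at 76.3, 26.8 and 20.03 FPKM in inverse and 5.06, 25.02 and 19.8 FPKM in standard co-culture. IFIT1, which binds foreign RNA, was at 12.3, 4.44 and 2.06 FPKM against 0.400, 4.37 and 3.15 FPKM. IRF7, the transcription factor that amplifies interferon production, was at 38.7, 13.1 and 12.9 FPKM against 3.00, 13.1 and 11.2 FPKM. In each of these 3, inverse replicate 1 was the highest and standard replicate 1 the lowest library, while the other 4 lay between them. Accordingly their 95% intervals were wide, from -0.30 to 2.90 for ISG15, from -0.72 to 2.94 for IFIT1 and from -0.22 to 2.67 for IRF7.

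The same libraries set the level of the whole group. The mean log2(FPKM + 0.5) of the 24 genes was 4.599, 3.70 and 3.32 in inverse and 2.18, 3.77 and 3.52 in standard co-culture, and the median difference lay between 0.25 and 1.03 when each library was left out. OAS1A, an RNA-sensing synthetase, and XAF1 were the 2 members without overlap, both higher, beside 4.89% of all genes. OAS1A was at 10.6, 4.65 and 4.05 FPKM against 1.86, 3.77 and 3.55 FPKM. IFIT2 differed by 0.10 (95% interval -0.28 to 0.48). In control PSC the median was -0.23 and at 72 h it was -0.20, so the direction was not shared by either. Against its own control, the median of the 24 genes was 0.99 in the inverse and -0.00 in the standard model.

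Promoters of these genes often hold the interferon-stimulated response element, the site bound by the STAT and IRF factors that interferon activates. They are shown for ISG15, as the first gene of the group, and OAS1A, as a member without overlap. Each sequence runs from 250 bases before to 50 after the annotated start (RefSeq, GRCm38.p6, written 5′ to 3′ on the gene's own strand), with matches to GAAA and a second GAAA with 2 bases of any kind (N) between them, on either strand, in capitals, where overlapping matches run together.
ISG15 (chr4:156200769-156201068, minus strand): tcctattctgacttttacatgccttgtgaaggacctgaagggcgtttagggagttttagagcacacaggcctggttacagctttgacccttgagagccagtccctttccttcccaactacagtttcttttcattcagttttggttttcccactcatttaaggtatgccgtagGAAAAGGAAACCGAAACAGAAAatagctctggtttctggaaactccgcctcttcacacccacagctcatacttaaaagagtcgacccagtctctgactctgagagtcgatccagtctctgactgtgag
OAS1A (chr5:120907476-120907775, minus strand): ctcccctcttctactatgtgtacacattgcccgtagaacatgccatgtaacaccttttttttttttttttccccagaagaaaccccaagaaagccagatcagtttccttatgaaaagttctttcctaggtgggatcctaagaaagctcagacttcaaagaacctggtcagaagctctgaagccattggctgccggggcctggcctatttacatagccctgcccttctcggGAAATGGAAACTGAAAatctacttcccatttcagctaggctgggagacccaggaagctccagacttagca
ISG15 held 3 overlapping matches and OAS1A held 2. Of the 17 tested genes of the group with a promoter sequence in the table, 11 (64.7%) held the motif, beside 1079 of 27025 genes (3.99%) overall. A match of letters says nothing of binding in these cells.

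Genes of hypoxia and glycolysis had higher values in inverse co-culture in 32 of 34 members, with a median log2 difference of 0.50. PGK1, a glycolytic kinase, was at 286, 305 and 686 FPKM in inverse and 344, 189 and 164 FPKM in standard co-culture. BNIP3, which removes mitochondria under low oxygen, was at 82.7, 74.7 and 214 FPKM against 59.6, 70.1 and 52.0 FPKM. SLC2A1, the glucose transporter GLUT1, was at 69.6, 79.7 and 142 FPKM against 74.7, 67.3 and 57.4 FPKM. Inverse replicate 3 was by far the highest in all 3 genes. VEGFA, the hypoxia-induced angiogenic factor, differed by 0.17 (95% interval -0.14 to 0.49), and CAR9, an acid-base enzyme induced by hypoxia, by 0.70 (-0.30 to 1.70) at levels of 0.857 to 5.08 FPKM.

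Across the group, the mean log2(FPKM + 0.5) was 5.80, 5.80 and 6.67 in inverse and 5.75, 5.58 and 5.36 in standard co-culture. All inverse libraries were above all standard libraries, 2 of them by little. Members without overlap numbered 5 of 34, all higher (PFKL, TPI1, BNIP3, EGLN1 and NDUFA4L2), beside 4.89% of all genes. HK2 and DDIT4 were the 2 members with lower values. Without inverse replicate 3 the median was 0.23, the lowest of all omissions. Control PSC of the inverse model also had higher values in 29 of 34 members, with a median of 0.31. In these controls, grown without KPC cells, 7 members were higher and 1 lower without overlap. Of all genes tested in controls, 4.65% were higher and 1.80% lower without overlap. Several glycolytic genes have near-identical processed pseudogenes, and the low level of GAPDH, 8.20 to 17.3 FPKM, makes its value uncertain.

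**Figure D4:**
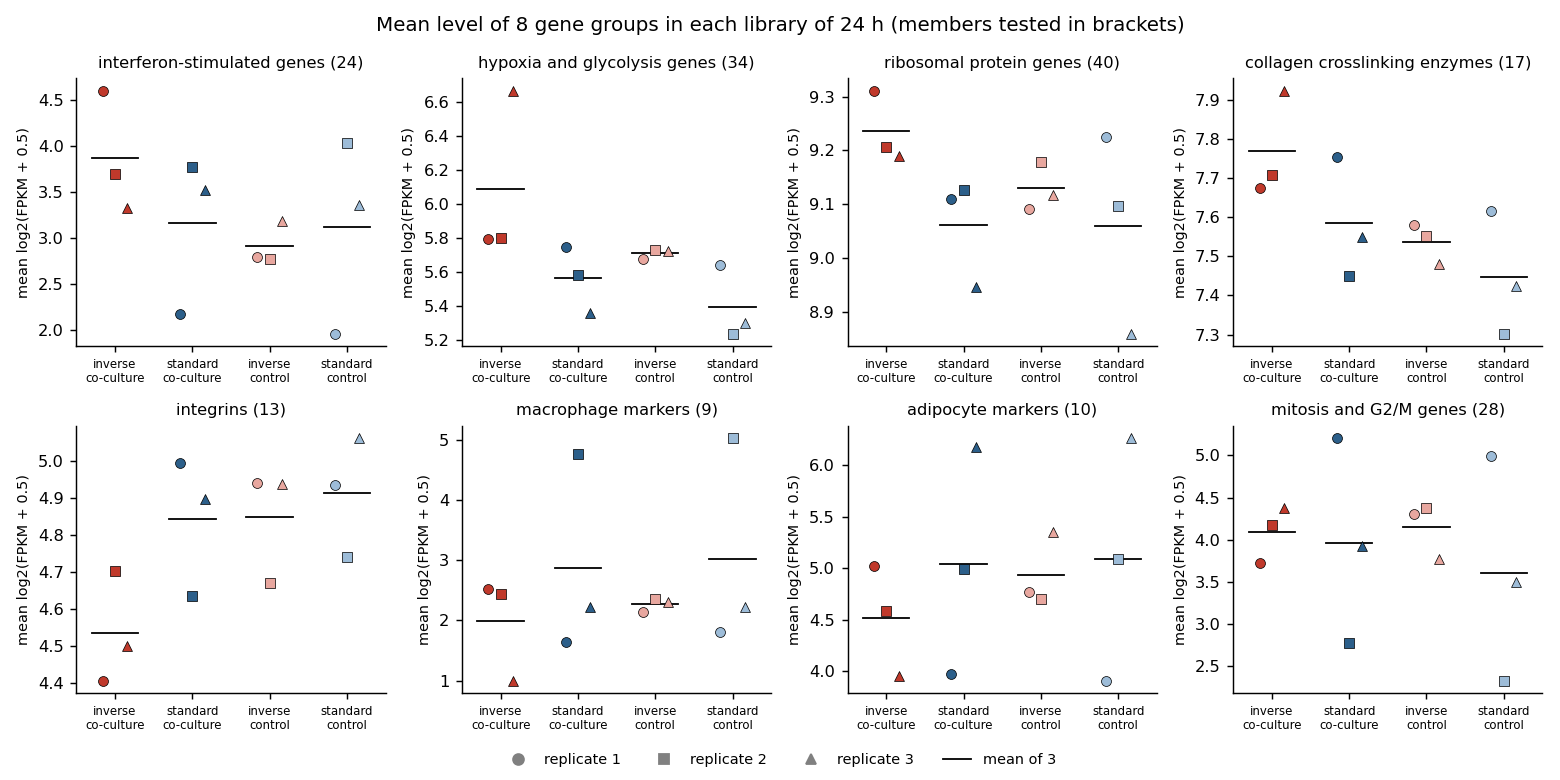
Mean log2(FPKM + 0.5) of the tested members of 8 gene groups in each library of 24 h, with a symbol for each replicate and a line at the mean of 3; vertical axes do not start at 0 and differ between panels. Interferon-stimulated genes are highest in inverse replicate 1 (4.599) and lowest among co-cultures in standard replicate 1 (2.18), hypoxia and glycolysis genes are highest in inverse replicate 3 (6.67), and macrophage markers are highest in replicate 2 of the standard model.

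The core of the hypoxia response element, the site bound by hypoxia-inducible factors, is shown in capitals (ACGTG on either strand) for PGK1, a textbook target, and BNIP3, a member without overlap, over the same window.
PGK1 (chrX:106186850-106187149, plus strand): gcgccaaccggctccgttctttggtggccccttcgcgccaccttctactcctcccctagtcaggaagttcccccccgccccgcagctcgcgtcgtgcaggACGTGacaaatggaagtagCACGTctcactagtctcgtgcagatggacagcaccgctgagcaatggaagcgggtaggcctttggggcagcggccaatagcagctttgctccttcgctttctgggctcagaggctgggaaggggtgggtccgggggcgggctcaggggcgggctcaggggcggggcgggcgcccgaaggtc
BNIP3 (chr7:138909457-138909756, minus strand): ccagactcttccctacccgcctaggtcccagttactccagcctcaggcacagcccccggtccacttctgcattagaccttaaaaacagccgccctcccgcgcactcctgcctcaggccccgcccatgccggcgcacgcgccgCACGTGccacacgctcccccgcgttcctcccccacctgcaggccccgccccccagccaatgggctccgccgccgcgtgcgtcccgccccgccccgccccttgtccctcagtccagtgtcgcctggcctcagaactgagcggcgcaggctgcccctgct
In BNIP3 the 2 matches overlap, one on each strand. Of the 30 members of the group with a promoter sequence, 21 (70.0%) held ACGTG, beside 5886 of 27025 genes (21.8%) overall. Such a short core is frequent by its length, and whether these matches are used was not measured.

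Cytokines and chemokines could not be compared with any precision. IL6, the cytokine that defines inflammatory CAF, was at 66.2, 43.4 and 79.8 FPKM in inverse and 7.93, 227 and 62.7 FPKM in standard co-culture, with 95% limits of -2.17 and 2.81. CXCL1, a neutrophil chemokine, was at 53.6, 30.3 and 21.9 FPKM against 2.41, 151 and 36.4 FPKM. CXCL12, the ligand of CXCR4, was at 229, 181 and 62.9 FPKM against 53.3, 297 and 220 FPKM. Standard replicate 1 was the lowest and standard replicate 2 the highest library for each of these 3. Over 18 chemokines the median was -0.22, with -0.87 and 0.45 as its limits when each library was left out. Of the 17 inflammatory CAF genes, 8 had higher and 9 lower values. LY6C1, a surface marker of inflammatory CAF in mice, was the 1 without overlap, at 54.6, 31.2 and 68.9 FPKM against 16.0, 23.7 and 28.2 FPKM, and control PSC differed in the same direction by 0.90.

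Macrophage markers were highest in the same library, standard replicate 2, and lowest in inverse replicate 3. LYZ2, lysozyme of macrophages, was at 62.3, 53.4 and 18.4 FPKM in inverse and 26.3, 266 and 43.4 FPKM in standard co-culture, and C1QA at 6.46, 4.83 and 1.49 FPKM against 1.84, 35.4 and 3.52 FPKM. Summed over the 14 macrophage markers, FPKM was 97.6, 85.6 and 28.0 in inverse, 44.2, 465 and 70.6 in standard co-culture, 83.9, 92.1 and 83.1 in inverse and 52.8, 618 and 80.5 in standard control PSC. All 9 markers tested had lower values in inverse co-culture, with a median of -0.85. This rested on standard replicate 2, without which the median was 0.12. The part of these cells in the chemokine values was not tested, and fewer cells of a type and less RNA per cell cannot be told apart in bulk RNA.

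Myofibroblastic and contractile genes overlapped between the models. ACTA2, smooth muscle actin, was at 1474, 1519 and 1253 FPKM in inverse and 3129, 581 and 1122 FPKM in standard co-culture, so that the standard libraries lay on both sides of the inverse ones. TAGLN, an actin-binding protein, was at 27.8, 25.1 and 25.6 FPKM against 38.9, 11.1 and 18.5 FPKM. POSTN, a matricellular protein of activated fibroblasts, differed by -0.02 (95% interval -0.44 to 0.40). Of 20 contractile genes, 14 had higher values, with a median of 0.13 that was -0.25 to 0.57 when each library was left out. In control PSC 19 of the 20 were higher in the inverse model, with a median of 0.32, beside 63.7% of all genes. MYLK, the kinase of the myosin light chain, was the 1 lower without overlap, at 77.9, 75.0 and 91.3 FPKM against 109, 93.0 and 99.1 FPKM.

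Genes of the cell cycle were likewise spread more widely in standard than in inverse co-culture. MKI67, a marker of dividing cells, was at 8.91, 14.4 and 22.6 FPKM in inverse and 37.0, 8.12 and 16.2 FPKM in standard co-culture. TOP2A, a topoisomerase of dividing cells, was at 41.6, 67.6 and 83.3 FPKM against 133, 28.5 and 60.6 FPKM. The mean log2(FPKM + 0.5) of 28 mitosis genes was highest in standard replicate 1, at 5.21, and lowest in standard replicate 2, at 2.77. None of the 28 had groups without overlap, and their median was 0.13, with -0.46 and 0.74 as limits when each library was left out. In control PSC the median was 0.58.

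Of the growth factor, BMP and TGF-beta genes, few stood apart. BMP6, a ligand of the BMP family, was at 19.6, 18.2 and 22.5 FPKM in inverse and 16.97, 5.08 and 7.18 FPKM in standard co-culture, a difference of 1.18 (95% interval 0.25 to 2.10). FRZB, a secreted Wnt antagonist, was at 22, 24.4 and 28.1 FPKM against 11.97, 20.6 and 15.6 FPKM, and the control PSC differed to a similar extent, by 0.70 against 0.64. Both ligand and antagonist were higher in every inverse library. BMPR2, the type II BMP receptor, and SKIL, a repressor of SMAD signalling, were lower without overlap, by -0.44 and -0.49. PDGFD, a ligand of PDGFRB, was higher without overlap, at 18.9, 17.8 and 16.4 FPKM against 10.6, 14.4 and 15.7 FPKM. Over 32 growth factor ligands and receptors the median was 0.03, and over 20 TGF-beta family genes it was -0.03, from -0.02 to 0.11 and from -0.06 to 0.09 when each library was left out.

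CRABP1, a carrier of retinoic acid in the cell, was at 7.005, 3.10 and 2.86 FPKM in inverse and 0.464, 2.08 and 1.16 FPKM in standard co-culture. Its control PSC differed in the same direction, by 1.12 against 1.49 log2 units. CDKN1A, the p53-induced cell cycle inhibitor p21, was at 290, 263 and 265 FPKM against 236, 217 and 188 FPKM, a difference of 0.36 (95% interval 0.05 to 0.66) that was 0.11 in controls. Both lay above in every inverse library.

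Ribosomal protein genes differed little but evenly. Of 40 tested, 39 had higher values in inverse co-culture and 14 were higher without overlap, beside 4.89% of all genes and 8.89% of the shortest. The median log2 difference was 0.16, beside -0.12 at 72 h, and all 40 intervals lay within 1 log2 unit of 0. With quantile normalization this median was 0.05. In control PSC 37 of 40 were also higher in the inverse model, with a median of 0.06 and 0 without overlap. RPL6 was at 1023, 1008 and 925 FPKM against 862, 858 and 771 FPKM, and RPL37A at 453, 415 and 501 FPKM against 345, 381 and 279 FPKM. These genes are short, and the median with the length correction was 0.04. Chaperones of the endoplasmic reticulum also had narrow values, and CALR, a calcium-binding chaperone, was at 978, 1030 and 890 FPKM against 880, 624 and 737 FPKM. ATF6, a sensor of unfolded proteins, was lower without overlap, at 11.5, 13.9 and 12.5 FPKM against 17.7, 16.8 and 16.4 FPKM, whereas all 22 intervals of this group lay within 1 log2 unit of 0.

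The difference between the models was ordered by transcript length. From the shortest to the longest of 5 equal groups of genes, with median lengths of 745 to 3448 bases, the median log2 difference was 0.108, 0.064, 0.019, -0.031 and -0.113. Groups without overlap in the lower direction made up 1.61% of the shortest and 12.7% of the longest genes. In control PSC the medians ran from 0.107 to -0.009, and at 72 h in co-culture from -0.076 to 0.048, in the opposite order. DST, SH3PXD2A, ZFP871 and HSPG2, all with lower values, have lengths of 7972, 4563, 5022 and 9728 bases, and SELENOW, with higher values, has 736 bases. After the length correction DST still differed by -0.45, PRKG1 by -0.60, MAGED2 by 0.51 and SELENOW by 0.39. The difference was also ordered by the GC content of the transcripts. From the lowest to the highest of 5 equal groups, the median log2 difference ran from -0.049 to 0.073. Groups without overlap in the lower direction fell from 8.78% to 1.92%. In control PSC the medians ran from 0.022 to 0.12. No correction for GC content was made. The part of RNA input or RNA quality in these orders was not tested.

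Markers of other cell types were uneven between libraries. Keratins of epithelium stood out in inverse replicate 2: KRT8 was at 0, 15.2 and 2.00 FPKM in inverse and 0.0271, 0.0874 and 0.0749 FPKM in standard co-culture. KRT19 was at 1.64, 11.6 and 2.53 FPKM against 0.975, 0.218 and 0.349 FPKM and had no overlap between the models. EPCAM, which defines epithelial cells, was at or below 0.107 FPKM in all 6 libraries, and CLDN4 was at or below 0.0684 FPKM. The 14 epithelial markers summed to 9.67, 52.5 and 13.5 FPKM in inverse and 9.15, 9.70 and 9.23 FPKM in standard co-culture. In control PSC the sums were 7.04, 7.21 and 9.07 FPKM in the inverse and 6.37, 6.33 and 8.23 FPKM in the standard model. At 72 h the mean log2(FPKM + 0.5) of the 3 tested markers was 1.75, 1.72 and 1.71 in inverse and 1.11, 1.19 and 0.90 in standard co-culture. Whether these transcripts came from PSC or from KPC cells, and their part in other differences, was not tested.

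Adipocyte markers were lower in inverse co-culture in all 10 tested, with a median of -0.50. ADIPOQ, a hormone of adipocytes, was at 34.7, 20.03 and 14.5 FPKM in inverse and 11.3, 32.8 and 69.9 FPKM in standard co-culture, and PLIN1, which coats lipid droplets, at 50.1, 31.5 and 17.7 FPKM against 18.3, 41.2 and 116 FPKM. Standard replicate 3 was the highest library for both, and without it the median of the 10 genes was 0.03. Of the 7 mesothelial markers, 2 were tested, KRT19 (2.15) and WT1 (0.22), with a median of 1.185. LRRN4 and UPK1B from the same list, too low to be tested, were at 0 in all inverse libraries and at up to 4.07 and 2.59 FPKM in the standard ones, so the list did not go one way. XIST, the RNA of the inactive X chromosome, was at 33.6, 37.1 and 39.0 FPKM against 51.9, 73.5 and 76.7 FPKM, whereas DDX3Y from the Y chromosome overlapped at 11.7, 12.3 and 14.8 against 11.6, 14.1 and 16.1 FPKM. Both genes were present in every library.

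Control PSC, measured in the same way, give the background of these differences. Between the models, 0 of 12903 genes (0%) passed an adjusted p of 0.05 in limma, with 225 (1.74%) at an unadjusted p under 0.05 and 187 with voom, which called 0 genes too. Higher values in the inverse controls were seen for 63.7% of the genes, beside 52.0% in co-culture. Groups without overlap made up 4.65% in the higher and 1.80% in the lower direction. NDUFA4L2 (1.74), PIK3R2 (-1.21), FAM162A (0.73), ALCAM (-0.62), BMP6 (0.55) and SELENOW (0.34) were among the genes described above whose log2 differences in controls had the sign seen in co-culture. MAGED2, DPP4 and PRKG1 differed by 0.22, 0.09 and -0.06 in controls, also with that sign but by less.

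The count for controls hung on 1 library. Without standard control replicate 1, 58 genes passed, 35 with higher and 23 with lower values, and 2612 were at an unadjusted p under 0.05. SLC16A3, the lactate exporter MCT4, then had the smallest p, with 69.4, 61.4 and 57.3 FPKM in the inverse controls against 76.3, 11.5 and 17.9 FPKM in the standard controls, where replicate 1 is the high value left out.

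Whether the difference between the models in co-culture was other than in control PSC was tested as an interaction over the 12 libraries of 24 h. With limma, 0 of 13554 genes (0%) passed, the count at an unadjusted p under 0.05 was 147 (1.08%), and voom called 0 with 129. Same-numbered co-culture and control libraries deviated together in the standard model, with correlations of 0.82, 0.76 and 0.53, and not in the inverse model, with -0.18, 0.04 and -0.13. With the replicate block within each model 0 genes passed, 512 were at an unadjusted p under 0.05, and the median standard error was 0.234 instead of 0.319. For TMEM150A the difference of the co-culture effects was 4.24 log2 units (95% interval 2.20 to 6.28; adjusted p = 1.00 in limma), from 2.83 in the inverse and -1.42 in the standard model. For ISG15 it was 1.68, for VCAN -0.42 and for MAGED2 0.32, none of which passed. Without the block, the 95% interval lay within 1 log2 unit of 0 for 57.6% of the genes.

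**Figure D5:**
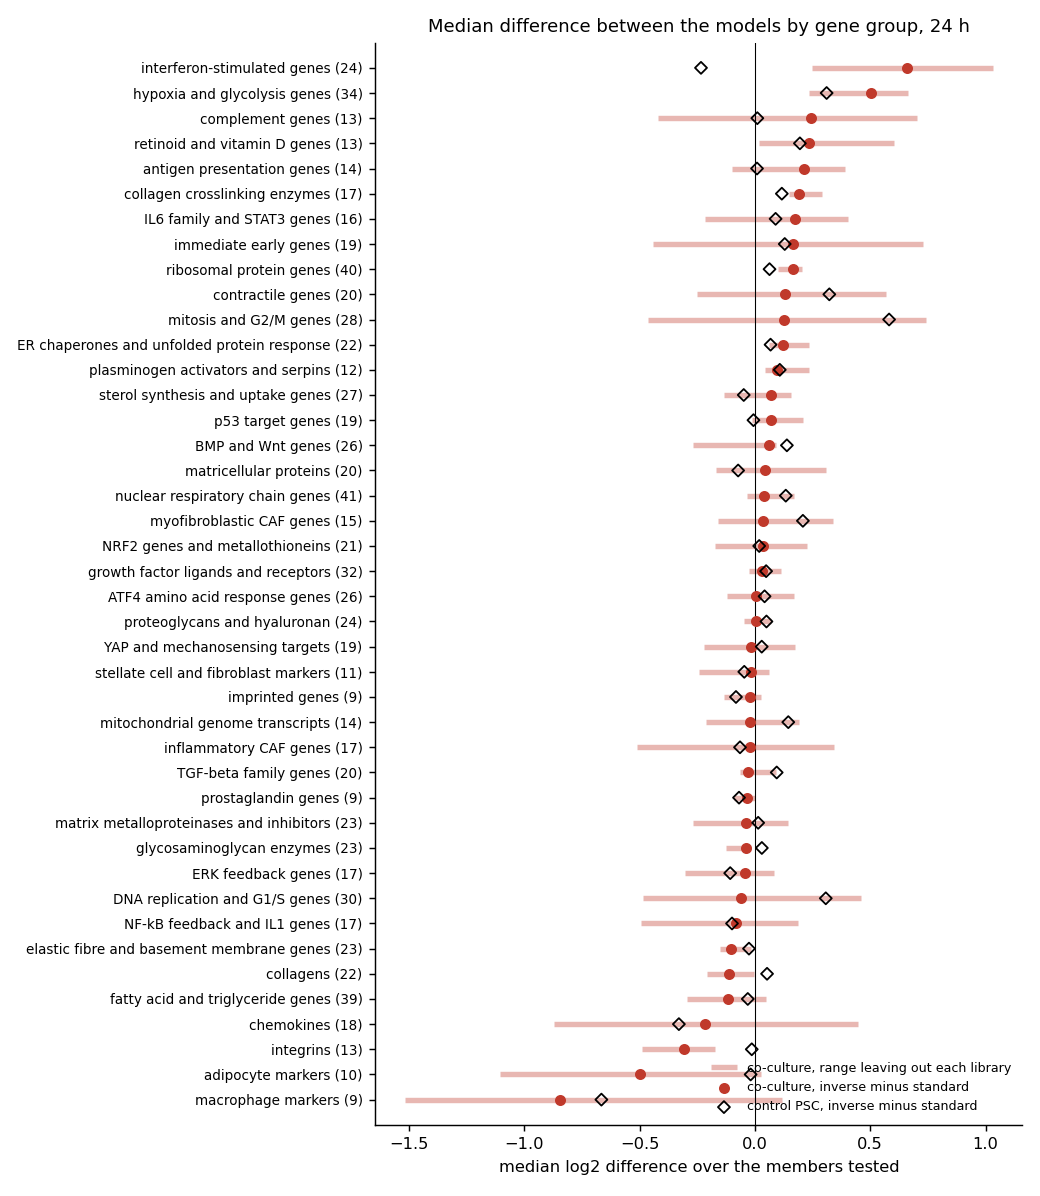
Median log2 difference of inverse minus standard over the tested members (numbers in brackets) of gene groups with at least 8 members tested, at 24 h. Filled points show co-culture, bars the range when each of the 6 libraries is left out, and open diamonds control PSC; interferon-stimulated genes (0.66) and macrophage markers (-0.85) are at the ends, and only the former lie on the other side of 0 in controls (-0.23).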

How the data were processed

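RNA of PSC was sequenced by the submitters. Per the submitters' processing notes and methods, reads were aligned to GRCm38.p6 with HISAT2 2.0.5, counted per gene by featureCounts 1.5.0-p3 without regard to strand, tested with DESeq2 1.20.0 and deposited as FPKM by the authors for 53801 genes in 24 libraries. FPKM are not counts, so the values were analysed as log2(FPKM + 0.5) in limma 3.58.1 (R 4.3.3) with an intensity trend, two-sided, with Benjamini-Hochberg adjustment, for genes above 1 FPKM in at least 3 of the libraries compared. Fold changes on this scale understate low genes. Low values were whole multiples of 1 fragment for 89.09% to 91.75% of values (tolerance 0.02 fragments), which gave the depths and the fragments for voom. The limma fit was tested on simulated data.

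Samples were grouped by their labels, and the p-values measure the spread between these libraries. The 6 libraries were picked by their labels alone. The 50 gene lists and their members were chosen with earlier results of these data known. Named genes were the 6 in each direction with the smallest p (mean of at least 5 FPKM, protein-coding, no overlap), the first 3 of a list, 10 genes from the study's text and markers of other cell types; other genes were chosen after their values were seen. Group levels and medians are over tested members. The length correction took out each library's deviation from the gene means, smoothed over log2 transcript length. Promoters came from RefSeq (GRCm38.p6), and gene annotation was matched for 53706 genes. Replicate numbers did not pair the models, as deviations of same-numbered libraries had correlations of -0.33, -0.06 and -0.18, but did tie standard co-culture to its control. Other settings of filter, pseudocount, scaling and samples are given in the closing section.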

Additional observations from a re-analysis of the deposited data

How the results depend on the processing

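With limma, the count of 0 genes between the models in co-culture stayed at 0 under all alternatives but one: without the intensity trend 1 gene passed, the pseudogene GM8034. Counts at an unadjusted p under 0.05 ran from 226 (without standard replicate 3) to 1190 (without standard replicate 1), beside 499 with all libraries; without inverse replicate 1, 2 or 3 they were 272, 315 and 714, and without standard replicate 2, 507. For control PSC the count was 2 without the trend, 1 with all 12 libraries in the fit, and 0 to 58 when each library was left out, 58 without standard control replicate 1. For the difference of the co-culture effects it was 1 without a filter on low values (GM48908), and 0 when each library was left out. With the replicate block the 3 counts remained 0, with 271, 166 and 512 genes at an unadjusted p under 0.05; the numbers did not pair libraries across models, and within a model they did so in the standard model alone. Over 49 gene groups, 955 of 978 recomputed medians moved by less than the spread between replicates, and over 149 named genes 2933 of 2943 values did. That spread was wide, so moving less than it does not mean a stable sign. The medians of most groups changed sign when some 1 library was left out. Those of the interferon-stimulated, hypoxia and glycolysis, integrin and ribosomal protein genes were among the ones that did not. The cause of the counts that moved was not tested, and GM8034 and GM48908 were named after their values were seen. Whether depth or the number of libraries limits these counts was not tested.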

Other observations

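Groups outside the account above were near the value of all genes in most cases. Of 14 antigen presentation genes, 11 had higher values in inverse co-culture, with a median log2 difference of 0.21, and H2-DMA and H2-DMB1, which load peptides on class II molecules, were higher without overlap, while the median was -0.10 without standard replicate 1. Of 13 complement genes, 9 had higher values with a median of 0.24, beside 0.01 in control PSC, and no member was without overlap; the median was -0.42 without standard replicate 1 and 0.70 without standard replicate 2. Nuclear genes of the respiratory chain had a median of 0.04, which was -0.03 without inverse replicate 1 and -0.04 with the length correction, and 40 of the 41 intervals lay within 1 log2 unit of 0. Genes of fatty acid and triglyceride metabolism had lower values in 29 of 39 with a median of -0.12, which was 0.05 without standard replicate 3. Genes of DNA replication and the G1/S step had lower values in 23 of 30 with a median of -0.06, which was 0.46 without standard replicate 1 and -0.48 without standard replicate 2, beside 0.31 in controls. Proteoglycans had 12 higher and 12 lower of 24, with BGN higher and GPC6 lower without overlap.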
